A study of Mus musculus with 4 samples.

Results

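Library 2 is a pool of mouse mutant cells that listed 3168 genes with at least 1 sequencing read at a transposon insertion, of 5614 genes listed over the whole series. Its members are all genes of the table deposited for that library, taken whichever number of reads they had. The study made haploid neural stem cell-like cells, which carry a single chromosome set, and hit their genes at random with a transposon for genetic screening. Genomic DNA of 4 samples was measured, and library 2 pools 2 of them in 1 table, so no value below has a replicate. Library 1 pools the remaining samples and serves only to say which genes of library 2 it also listed and with how many reads. Read numbers were not normalized between the libraries, and their differences have no replicate.

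The labels give both libraries the same background and treatment. The cells came from haploid embryonic stem cells on a 129Sv background, grown as embryoid bodies and then in N2B27 medium with FGF2 and EGF (20 ng/ml each), the BMP receptor inhibitor LDN193189 (300 nM), the activin and TGF-beta receptor inhibitor SB431542 (10 µM) and the ROCK inhibitors Y-27632, Thiazovivin or both, without saying which was used for which sample. They were transfected with 20 µg of piggyBac gene trap plasmid and 10 µg of piggyBac transposase, and trapped cells were selected with G418. The labels name no sample without transposon, so there is no background measured the same way. The data are reads of DNA, so neither the labelled cell type nor the expression of any gene could be checked with marker genes.

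The piggyBac transposon is cut from its plasmid and pasted into the genome at the tetranucleotide TTAA. A gene trap carries a splice acceptor with a selectable marker, so that a gene it lands in is interrupted and the cell can survive the drug. In a haploid cell no intact copy of that gene remains, which makes such cells useful for recessive screens. Splinkerette PCR then amplifies the junction between transposon and genome from a pool of cells. The deposited table counts 2 quantities for each gene, nonredundant reads and redundant reads. The sources used here do not define either. Redundant reads were never fewer than nonredundant reads of the same gene, and their ratio is called copies per nonredundant read below. Reads are PCR products without molecular identifiers, so neither quantity counts insertions or cells, and all intervals (exact Clopper-Pearson, 95%) cover counting error only.

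The sequence the transposon needs is common, and windows before a transcript start of 3 of the 10 leading genes show how much it varies among them. They are Stx1a, the gene with most reads; Armc7, the gene with most reads that library 1 did not list; and Nrxn3, whose window held more TTAA than those of the other leading genes that have one. Each is the 250 bases before a RefSeq transcript start on the plus strand of GRCm38.p6, 5′ to 3′, with every TTAA in capitals. The windows lie at chr5:135023232-135023481 for Stx1a, chr11:115475417-115475666 for Armc7 and chr12:88794254-88794503 for Nrxn3, the latter the first listed of 3 windows for that gene.
Stx1a: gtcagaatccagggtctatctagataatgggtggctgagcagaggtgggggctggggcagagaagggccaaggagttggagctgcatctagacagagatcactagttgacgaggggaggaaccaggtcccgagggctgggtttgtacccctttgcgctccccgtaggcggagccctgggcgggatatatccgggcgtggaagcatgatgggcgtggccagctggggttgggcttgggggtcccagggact
Armc7: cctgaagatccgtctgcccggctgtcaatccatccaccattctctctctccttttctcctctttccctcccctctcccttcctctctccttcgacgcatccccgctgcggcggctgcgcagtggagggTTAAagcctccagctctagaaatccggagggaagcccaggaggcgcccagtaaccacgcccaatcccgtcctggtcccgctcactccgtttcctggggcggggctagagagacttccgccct
Nrxn3: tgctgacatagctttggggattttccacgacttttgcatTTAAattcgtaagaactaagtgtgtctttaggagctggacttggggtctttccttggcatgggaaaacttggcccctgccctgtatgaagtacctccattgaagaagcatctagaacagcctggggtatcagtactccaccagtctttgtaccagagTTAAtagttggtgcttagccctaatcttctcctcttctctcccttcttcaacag
Stx1a held no TTAA there, Armc7 held 1 and Nrxn3 held 2. The Nrxn3 window had 45.6% GC, beside 62.0% for Stx1a and 62.4% for Armc7. It ends in a pyrimidine-rich stretch and cag, as splice acceptors do, and whether it is a promoter was not tested. The files give no position of any insertion, so these letters say nothing of where the trap sat.

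Promoter windows with TTAA were about equally common in every read class of library 2. Windows ran from 250 bases before to 50 after the start, and the first listed window was used for each gene that had one (TTAA reads the same on both strands). Of genes with 100 or more nonredundant reads, 25 of 64 windows held the motif (39.1%, interval 27.1 to 52.1). The share was 43.4% in genes with 10 to 99 reads, 39.6% in those with 2 to 9 and 42.6% in those with exactly 1. Over all listed genes it was 41.7% (39.8 to 43.6), below the 52.7% (52.1 to 53.3) of all 27025 windows in the table. That full set was not matched to the listed genes in gene type or length, and the difference was not tested. Rapgef2, which encodes an exchange factor for Rap GTPases, had the most motifs of the leading class, with 4 in its window.

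Few genes carried most of the reads. Library 2 held 48750 nonredundant and 1300140 redundant reads. The 78 genes with 100 or more nonredundant reads were 2.46% of listed genes (1.95 to 3.06) and held 75.8% of nonredundant reads (75.4 to 76.2) and 94.2% of redundant reads. The 216 genes with 10 to 99 reads (6.82% of genes) held 13.8% and 2.94%. The 983 genes with 2 to 9 reads (31.0%) held 6.48% of nonredundant and 1.60% of redundant reads, and the 1891 genes with exactly 1 read held 3.88% and 1.24%. Below, these groups are called the upper, middle, lower and single-read tiers. At the border of the upper tier, Fbl and Scfd2 had 101 reads and Cdh23 had 100, while Wdr60 had 97, Fgf14 96 and Zfp532 95. These values describe the cut and carry no test.

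Redundant reads were even more concentrated than nonredundant ones. Slc8b1, which encodes an exchanger of sodium and calcium ions in mitochondria, had 323039 redundant reads or 24.8% of the library (24.8 to 24.9), and Stx1a, a SNARE protein of the presynaptic membrane, had 243942 or 18.8% (18.7 to 18.8). Their order is the reverse for nonredundant reads, where Stx1a had 4988 and Slc8b1 4497. The neurexin gene Nrxn3 followed with 177313 redundant reads, then Cpeb1, which controls cytoplasmic polyadenylation, with 100112, and Ski, a co-repressor of TGF-beta target genes, with 97543. These 5 genes together held 34.1% of nonredundant and 72.5% of redundant reads. Without the 10 leading genes, the other 3158 genes had 9.46 redundant reads for each nonredundant read, against 26.7 in the full library.

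**Figure D1:**
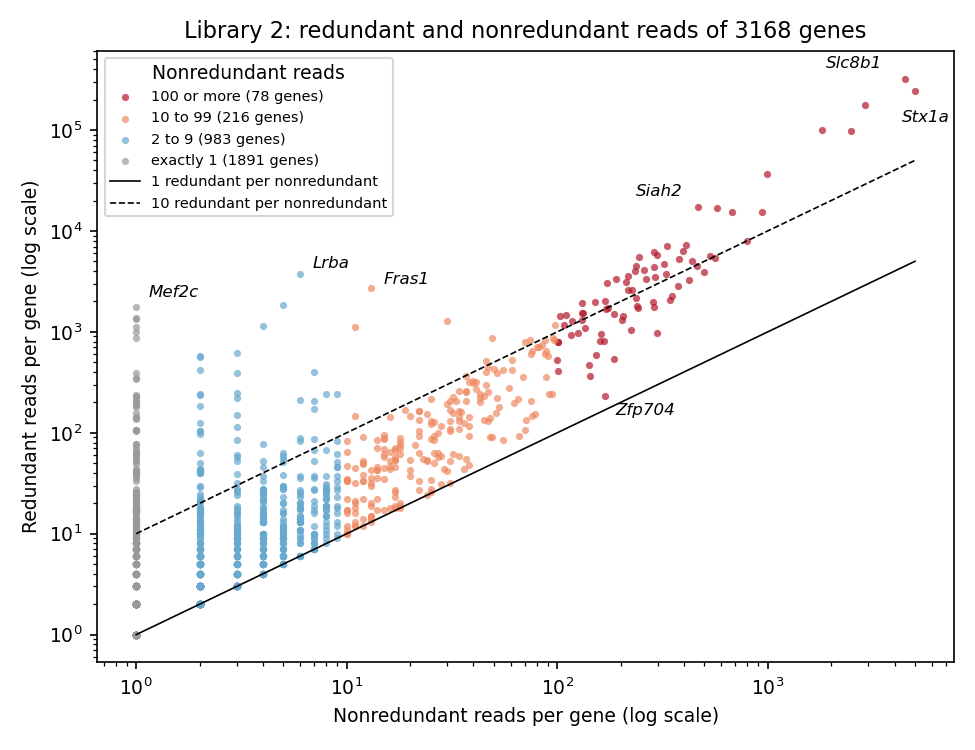
Each point is 1 of the 3168 genes of library 2, with its nonredundant reads (horizontal, log scale) against its redundant reads (vertical, log scale); colours mark the 4 read tiers and lines mark 1 and 10 redundant reads per nonredundant read. The leading genes lie far above the upper line (Slc8b1 at 71.8), Zfp704 lies near the lower one (1.37), and a scatter of genes with few nonredundant reads, such as Lrba and Mef2c, reaches over 1000 redundant reads.

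The upper tier spanned many functions, and 46 of its 78 genes fell in at least 1 of 37 function classes defined by symbol patterns, against 51.8% of single-read genes. Ubiquitin ligases and their partners were the class with most upper-tier members, 5 genes or 6.41% of the tier, and also a large class, with 3.09% of all listed genes. Zyg11b, a substrate receptor of cullin ligases, had 941 reads. Siah2, a RING-type ligase, had 468, and the HECT-type ligases Nedd4 and Herc6 had 420 and 298. Genes outside the pattern that act with Nedd4 were also in this tier: Bean1, named as a Nedd4 partner, had 320 reads, and Ndfip2, an adaptor that recruits Nedd4-family ligases, had 131. This link was seen after the values were known.

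Small GTPase regulators and numbered zinc finger genes had 4 members each, or 5.13% of the tier. Of all listed genes they made up 3.79% and 1.58%. Dock9, an exchange factor for Cdc42, had 460 reads, Rapgef2 173, the Rab regulator Tbc1d10b 103 and Dennd1b, another Rab regulator, 101. The zinc finger genes were Zfp618 (378 reads), Zfp64 (185), Zfp704 (169) and Zfp958 (169). The class of other transcription factors held the co-repressor Ski (2469 reads), Sox6 (410) and Prdm16 (126). Sox6 acts in neural and cartilage development, and Prdm16 is a zinc finger factor active in neural stem cells and brown fat. The chromatin regulator Arid5b had 329 reads.

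Surface and matrix genes were also in the upper tier. Cadherins had 2 members there (2.56% of the tier, beside 0.57% of all listed genes). The class of integrins, matrix proteins and ADAM proteases had 3 (3.85%, beside 2.02%). Relations among the genes named here were seen after the values were known. Ephb1, a receptor tyrosine kinase, had 675 reads, and Efnb2, which encodes an ephrin that binds EphB receptors, had 344. Itgb3, an integrin subunit, had 573 reads, the procollagen protease gene Adamts2 563 and the basement membrane collagen gene Col4a5 131. The cadherins were Cdh13 with 243 reads and Cdh23 with 100. Grid1, a delta-type glutamate receptor, had 131 reads, and the adenosine receptor gene Adora2b 292. Col4a5 was the sole upper-tier gene on the X chromosome.

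Genes of secretion and sorting were led by Stx1a. Pclo, a scaffold of the presynaptic active zone, had 265 reads, and Cadps, which primes dense-core vesicles but lies outside the class pattern, had 245. Dscr3 (Vps26c in the reference), a subunit of an endosomal retrieval complex, had 994 reads, and the sorting receptor gene Sorcs1 143. Pde4dip, an anchor protein of the centrosome and Golgi named for its binding of a phosphodiesterase, had 438 reads, and the cyclic nucleotide phosphodiesterase gene Pde2a 174.

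Kinase and phosphatase genes of the classes had 1 member each in this tier (1.28% of it, beside 3.06% and 1.36% of all listed genes). Camk1d, a calmodulin-dependent kinase, had 216 reads. Ppp6c, the catalytic subunit of protein phosphatase 6, had 110 reads, and Ankrd28, a regulatory subunit of the same phosphatase, had 288. The cytoskeletal genes were Nckap5 (212 reads), Mtus2 (226) and the microtubule-depolymerising kinesin Kif2a (204). Metabolic genes included the lysosomal sulfatase gene Arsb (497 reads), Galnt18 (233), the malic enzyme gene Me1 (257), Far1 (239), a reductase of fatty acyl-CoA, and the glycolysis regulator Pfkfb3 (152). Slc36a2, an amino acid transporter, had 394 reads. Other upper-tier genes listed in library 1 that no pattern caught included Fam178b (532), the autophagy receptor gene Nbr1 (375), Lrch1 (296), Tmtc1 (287), Sugct (285), Oca2 (237), Dtwd2 (224), T2 (205), Rprd2 (166), Mlip (151), Zp3r (142), Ldlrad3 (108) and Scfd2 (101).

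Of the upper-tier genes, 18 of 78 were absent from library 1 (23.1%, 14.3 to 34), against 45.1% of all 3168 genes of library 2. These 18 genes held 3646 nonredundant reads or 7.48% of library 2. Armc7, an armadillo repeat protein, stood first with 797 nonredundant and 7913 redundant reads. Maml2, a co-activator of Notch signalling, had 288 and 6154. Rsbn1l had 237 reads and Ubtd2 217, and the other 14 genes had 101 to 190.

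The 18 genes were of mixed function, and 13 of them were in none of the classes. The same was so for 19 of the 60 upper-tier genes listed in library 1 and for 911 of 1891 single-read genes. Lin28b, which blocks let-7 microRNA maturation, had 186 reads. The surfactant gene Sftpb had 190 reads, Tmprss6, a membrane protease of iron metabolism, 171, and the splicing-related gene Srrm3 162. The zinc finger genes Zfp64 and Zfp958 had 185 and 169. Ttc28 had 159 reads, Pfkfb3 152, Atxn10 136, Sardh, the mitochondrial sarcosine dehydrogenase, 132, Ndfip2 131, Lrig2 117, the sphingomyelin synthase gene Sgms1 116 and Fbl, the methyltransferase of ribosomal RNA, 101. No gene of synaptic fusion, adhesion, axon guidance or ion transport as classed here was among the 18. Each of these classes is small, from 0.57% (cadherins) to 2.1% (solute carriers) of all listed genes. With 18 genes, such an absence does not set them apart.

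Within the upper tier, absence from library 1 went with fewer reads and shorter genes. Of the 48 upper-tier genes with 200 or more reads, 4 were absent (1 of 12 at 500 or more and 3 of 36 at 200 to 499), against 14 of 30 with 100 to 199 reads (46.7%, 28.3 to 65.7). The 18 absent genes had a median gene length of 62.8 kb (9.76 to 413) and a median of 9.47 copies per nonredundant read. The 60 listed genes had a median length of 179 kb (11.0 to 1612) and 11.8 copies. Across the library absence did not rise steadily as reads fell, with 32.4% absent at 10 to 99 reads and 29.2% at 2 to 9. What part length or read number has in the absence was not tested.

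Most upper-tier genes that library 1 did list had few reads there. Of the 60, 48 had 1 to 9 nonredundant reads in library 1, and in 22 of those 48 the redundant count there was the same number. Stx1a had 11 nonredundant and 41 redundant reads in library 1, Slc8b1 8 and 71, Ski 9 and 41, and Siah2 1 and 2. The 12 genes with 10 or more reads in library 1 included Dennd1b (97 reads there against 101 in library 2), Oca2 (36 and 237), Zp3r (27 and 142), Ldlrad3 (22 and 108) and Prdm16 (15 and 126), besides 4 genes with 100 or more in both. Whether low counts in library 1 come from separate insertions in the same genes or from reads shared between the libraries was not tested.

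**Figure D2:**
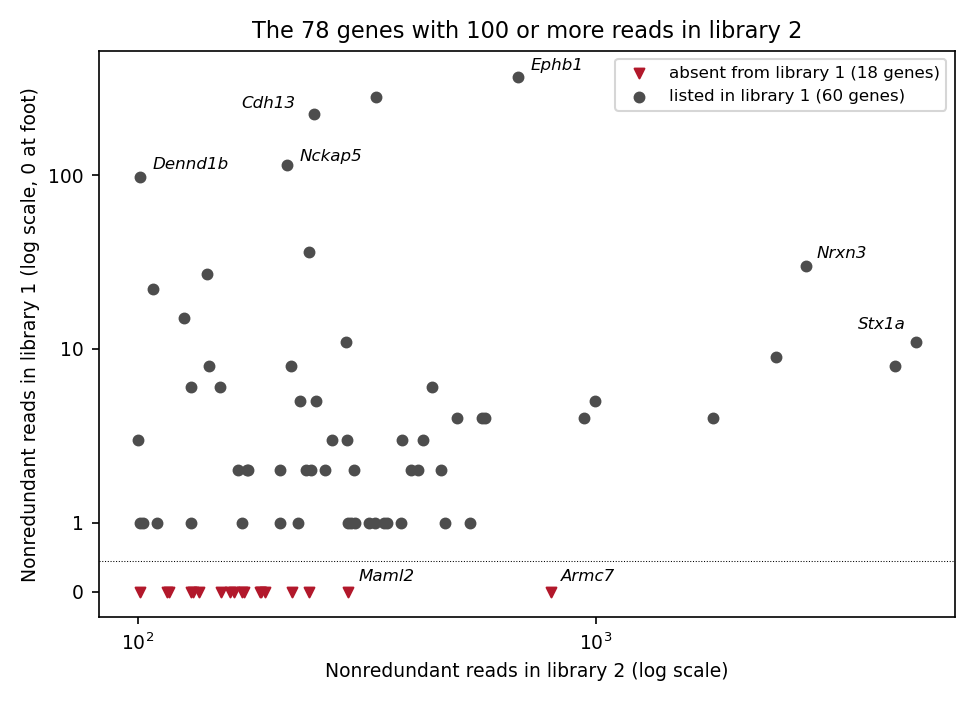
Each point is 1 of the 78 genes with 100 or more nonredundant reads in library 2, with those reads (horizontal, log scale) against its nonredundant reads in library 1 (vertical, log scale, with 0 drawn at the foot below the dotted line). The 18 genes absent from library 1 (triangles) lie mostly below 200 reads, apart from Armc7, Maml2, Rsbn1l and Ubtd2, and most of the other 60 lie below 10 reads in library 1.

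In the middle tier, 118 of 216 genes fell in a class, with cytoskeletal and ion channel genes in front at 10 genes each (4.63% of the tier, beside 2.53% and 1.99% of all listed genes). Fmn1, an actin-nucleating formin, had 70 reads, the ankyrin gene Ank3 66, the cofilin gene Cfl2 49 and the dystrophin gene Dmd 27. Among channels, Asic2, an acid-sensing sodium channel, had 85 reads, the calcium channel subunits Cacna2d3 and Cacna2d2 65 and 45, and the sodium channel gene Scn8a 36. No gene of the channel class was in the upper tier, so the class had its highest values here. The class rests on a symbol pattern, which also caught the zinc transporter gene Tmem163 (18 reads) and missed the proton channel gene Hvcn1 (15). Glutamate receptor genes such as Grid1, in the upper tier with 131 reads, were classed apart.

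Adhesion and matrix genes in the middle tier included long neural genes. The IgLON genes Ntm and Opcml had 59 and 45 reads, Nrcam 37 and Cadm1 14. The protocadherin-like gene Fat1 had 55 reads and the E-cadherin gene Cdh1 15. Lama2, a laminin chain, had 88 reads, Adamts17 46, the reelin gene Reln 34 and Col27a1 17. Cntnap2 had 14 and Tenm2 11, both trans-synaptic adhesion genes. The receptor tyrosine kinase gene Ntrk3, a neurotrophin receptor, had 78 reads, and the NMDA receptor genes Grin2b and Grin2a 30 and 10.

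Signalling and regulatory genes of the middle tier were spread over many pathways. Fgf14, an intracellular FGF homologue, had 96 reads, the secreted ligand gene Bmp7 91, Axin1, a scaffold of beta-catenin destruction, 51, and the adaptor gene Gab2 32. Chromatin genes were Phf2 (88 reads), the co-repressor Tle4 (61) and the histone demethylases Kdm4c (40) and Kdm1a (22). Transcription factor genes were Nfia (38 reads), Dach1 (30), Tbx20 (28) and Nr6a1 (25), and the zinc finger genes Zfp532 (95) and Zbtb16 (38). RNA-binding members were Rbms3 (82 reads), the helicase gene Dhx29 (31), the Musashi gene Msi2 (26) and Adarb2 (11).

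Of the classes with at least 15 listed genes, phosphodiesterases and cyclases had the largest share of members at 10 or more reads, 8 of 16 listed genes (50%, 24.6 to 75.4), beside 9.28% of all listed genes (8.29 to 10.3). In the middle tier these were led by Pde4b (53 reads), Pde10a (34), Pde1c (22) and Pde4d (15), enzymes that degrade cyclic AMP or cyclic GMP. Pde4dip, one of the 8, is named for its binding partner and is no phosphodiesterase. The other middle-tier members were the cyclase genes Adcy1 and Gucy1a2, with 11 reads each. Gene lengths of the 8 members ran from 91.1 kb (Pde2a) to 1302 kb (Pde4d), beside a median of 77.0 kb over all listed genes. No set test was run, the class was one of 37, and the part of length in this share was not tested.

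Traffic, motor and ubiquitin genes filled out the middle tier. Rab10 had 47 reads, Arhgap18 46, Rab31 15 and Rabgap1 14. The motor genes Kif13b, Myo10 and Myo6 had 43, 41 and 16. Mon2, a Golgi scaffold, had 40 reads, the clathrin heavy chain gene Cltc 20, Wdfy3 16 and Snx5 15. Ubiquitin genes were Ube2k (69 reads), Rnf220 (55), Fbxo45 (34) and Rnf111 (25). The mitotic kinase gene Nek6 had 74 reads and Nek11 27. Camkmt, with 70 reads, is caught by the kinase pattern but encodes a methyltransferase of calmodulin.

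Transport, metabolism and other classes had fewer members at 10 to 99 reads. The sodium-proton exchanger gene Slc9a9 had 36 reads and Slc5a4a 23. Ndufs4, a subunit of respiratory complex I, had 37 reads, Pfkfb1 17 and Atp5g2 11. Dpysl5, also with 37, is caught by the metabolic pattern but belongs to the collapsin response mediator family, which acts in axon growth. The receptor phosphatase gene Ptprm had 22 reads, the vesicle protein gene Syt6 18 and the semaphorin receptor gene Plxna4 10. The interleukin receptor gene Il13ra1 had 37 reads, Cd47 10 and the Fanconi anemia gene Fancl 10. Gene models named by number or clone were led by Gm5795 (94 reads), C87436 (38), 6330403A02Rik (18) and Gm37013 (15).

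Some middle-tier genes had far more reads in library 1. Myo6 had 16 nonredundant reads in library 2 and 1017 in library 1, Dmd 27 and 406, Nfia 38 and 349, and Tenm2 11 and 217. Others ran the opposite way, such as Phf2 (88 and 0), Fmn1 (70 and 1) and Ntrk3 (78 and 2). These genes were picked out after their values were seen.

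In the lower tier, 544 of 983 genes were in a class, and each leading member had 9 reads or fewer. The largest classes here were small GTPase regulators (46 genes, 4.68% of the tier beside 3.79% of all listed genes), other protein kinases (38, 3.87% beside 3.06%), gene models named by number or clone (34, 3.46% beside 3.54%), metabolic enzymes (33, 3.36% beside 3.31%) and cytoskeletal genes (31, 3.15% beside 2.53%). Ion channels followed with 30 genes (3.05% beside 1.99%). Examples were Arhgap6 and Rabgef1 with 8 reads each, Prkg1 with 7, the catenin gene Ctnna3 with 9, the synaptic scaffold gene Dlg2 with 9, and the calcium channel genes Cacna1c and Cacna1d with 5 each. Neural members included Epha6 (9 reads), the neuropilin gene Nrp1 (8), Rims2 (6) and Nbea (6). Regulatory members included Sall4 (9), Pax3 (8), Gli3 (7) and Phf21a (7).

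The other leading members of the lower tier, by class, had similar counts. Adhesion and matrix genes were Fat3 (9 reads), Pcdh11x (5), Negr1 (6), Cntn5 (5), Il1rapl1 (7), Adam12 (6) and Adamts9 (6). Signalling genes were the WNT receptor gene Ror1 (7), Stk32b (7), Ppp1r12b (8), Ppp3cc (6), Fgf12 (5), Fstl5 (5), the adenylyl cyclase gene Adcy9 (3), Pde7b (3), the metabotropic glutamate receptor gene Grm7 (6), Adgrb3 (3) and Adgra1 (2). Transport and motor genes were the glutamate transporter gene Slc1a2 (7), Slc25a40 (7), Atp8a2 (6), Abcc1 (4), Kif1c (7), Dnah11 (6) and Syt16 (7). Nuclear and RNA genes were the deacetylase gene Hdac9 (6), Zfpm2 (5), Khdrbs2 (5), Rbm27 (5), Tacc1 (8) and Wwox (8). Klhl24 had 9 reads, Ube2u 8, Galnt13 7, H2-Eb1 7, 1700030F18Rik 9, Gm13152 9, Vmn2r86 4 and Olfr18 2.

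For most classes the share of members with many reads could not be set apart from that of all genes at these class sizes. Beside the 9.28% of all listed genes, 10 or more reads were found in 4 of 18 cadherins (22.2%, 6.41 to 47.6), 4 of 22 immunoglobulin adhesion genes (18.2%, 5.19 to 40.3), 10 of 63 ion channels (15.9%, 7.88 to 27.3) and 12 of 80 cytoskeletal genes (15%, 8.0 to 24.7). At the other end were 0 of 24 olfactory, vomeronasal and taste receptors (up to 14.2%), 1 of 33 ABC transporters and pumps (3.03%), 2 of 57 immune-type genes (3.51%), 1 of 28 core translation, proteasome and splicing subunits (3.57%) and 3 of 73 cell cycle and DNA damage genes (4.11%). The interval of each of these 9 classes includes the 9.28% of all genes. These are counts of genes, which are not replicates, and no test of the differences was run. The symbol patterns also miss members, such as the DNA damage checkpoint gene Hus1 (50 reads), which lies outside the cell cycle and DNA damage class.

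**Figure D3:**
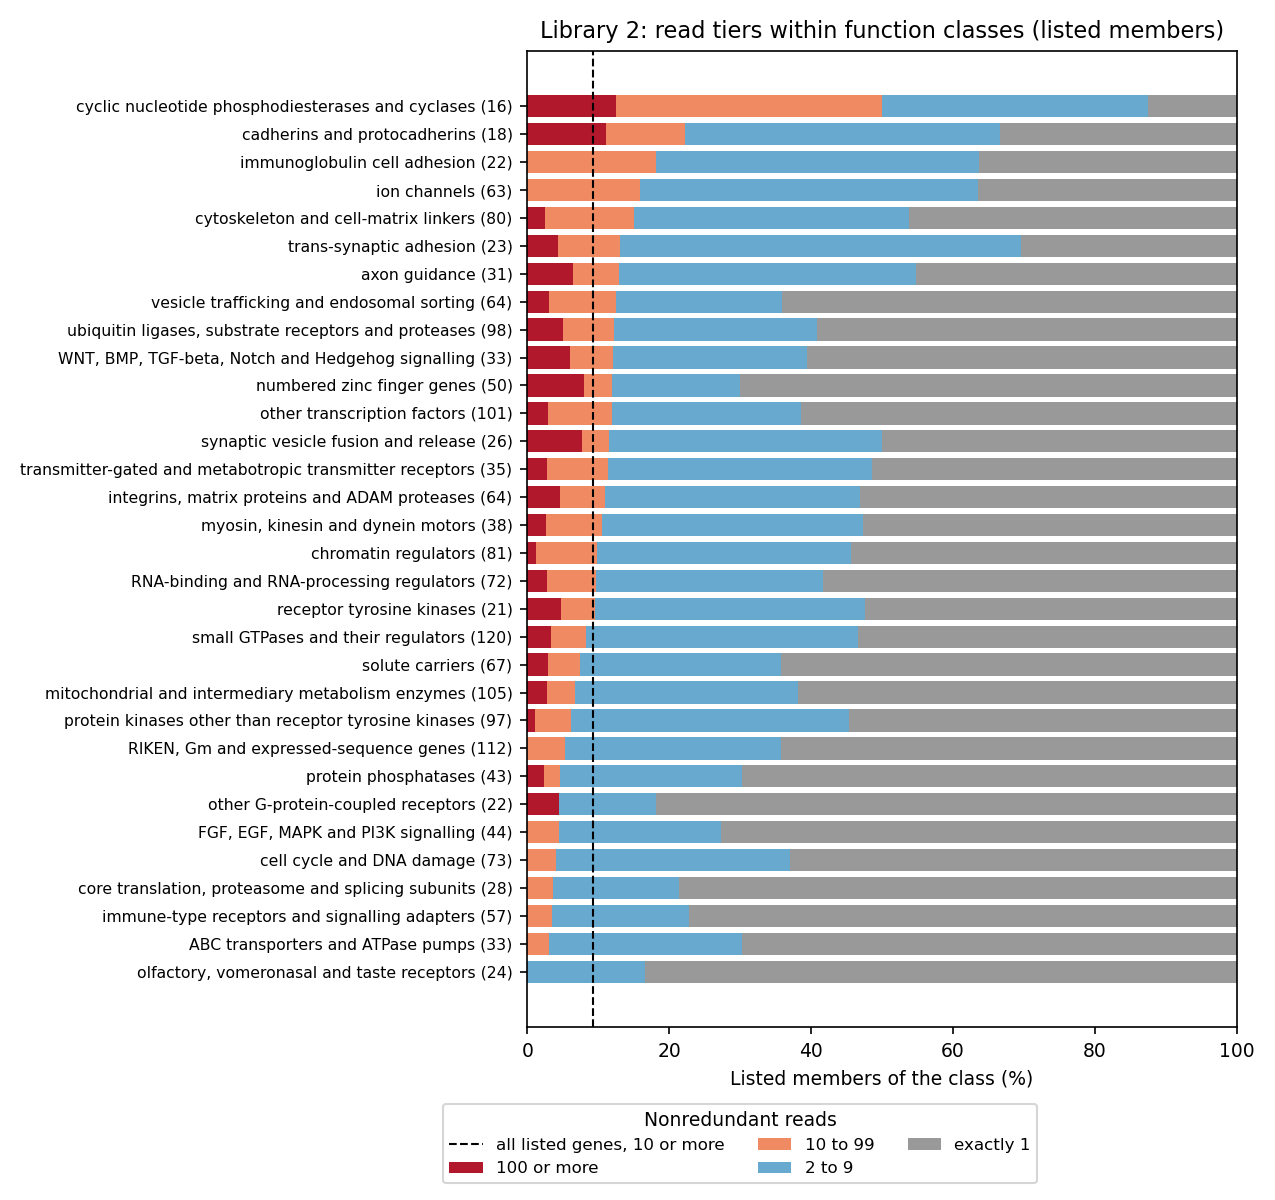
Bars give, for each function class with at least 15 listed genes in library 2 (number listed in brackets), the share of listed members in percent that fall in the 4 tiers of nonredundant reads. The dashed line marks the 9.28% of all listed genes with 10 or more reads; phosphodiesterases reach 50% and olfactory, vomeronasal and taste receptors 0%.

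Of the 28 listed core translation, proteasome and splicing subunits, 22 had exactly 1 read (78.6%, beside 59.7% of all listed genes) and 5 had 2 to 9. None was in the upper tier, which holds 2.46% of all listed genes. The share of the class with 2 or more reads was 21.4% (8.30 to 40.95), and that interval includes the 40.3% of all listed genes. With 28 genes, having none in the upper tier does not set the class apart. Psmb5, a catalytic proteasome subunit, was the sole member at 10 or more, with 14 nonredundant and 43 redundant reads. Eif3j1 and Eif4g3 had 3 nonredundant reads each. The essential gene Fbl lies outside this pattern and had 101.

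Fbl and Psmb5 each shared both of their counts with another gene. Fbl and Scfd2, on chromosomes 7 and 5, both had 101 nonredundant and 798 redundant reads. Psmb5 and Lmod3, on chromosomes 14 and 6, both had 14 and 43, and Camk2d and Fam134b, on chromosomes 3 and 15, both had 22 and 163. Map6 and Lrrc36, on chromosomes 7 and 8, both had 17 and 54. In all, 11 pairs of genes with 10 or more reads had equal counts, none of them overlapping on the reference, and the other 7 pairs had at most 13 nonredundant reads. With no positions in the table, the same reads counted for 2 genes and equal counts of different reads cannot be told apart.

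Marker genes of cell types were also looked up, which says nothing of their expression. Library 2 listed 3167 of 26219 reference genes with a curated transcript (12.1%). Of 30 neural stem cell and radial glia markers 4 were listed (13.3%, 3.75 to 30.7), Zbtb16 (38 reads), Dach1 (30), Msi2 (26) and Gli3 (7). Of 24 neuron and glia markers 3 were listed (12.5%, 2.66 to 32.4), with Slc17a6 in front at 2 reads. Of 26 pluripotency markers 2 were listed, Sall4 (9) and Jarid2 (3), and of 26 mesoderm, endoderm and blood markers none was (up to 13.2%). The intervals of all 4 lists include 12.1%. That reference also holds noncoding genes, among them 1336 small noncoding RNA genes, of which 1 was listed. The share over protein coding genes alone was not computed, so the lists were not set against it.

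Copies per nonredundant read rose with the tier for the typical gene. The median was 11.2 in the upper tier (quartiles 7.49 and 16.2), 3.34 in the middle tier (1.85 and 5.97), 1.5 in the lower tier (1 and 2.85) and 1 among single-read genes (1 and 2). Redundant and nonredundant counts were equal in 0 of 78, 6 of 216 (2.78%), 374 of 983 (38.0%) and 1400 of 1891 genes (74.0%). Across all 3168 genes, Spearman's rank correlation of nonredundant reads and copies was 0.45, and within the upper tier it was 0.46. Both measures come from the same reads, so this describes the table.

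The ratio of summed counts gives another picture, since a few genes dominate it. It was 33.1 in the upper tier and 11.7 there without the 10 leading genes, 5.67 in the middle tier, 6.61 in the lower tier and 8.54 among single-read genes. Of the upper-tier genes, 12 had 20 or more copies per nonredundant read, 30 had 10 to 20, 27 had 5 to 10 and 9 had fewer than 5. The 10 highest were Slc8b1 (71.8), Nrxn3 (61.6), Cpeb1 (55.5), Stx1a (48.9), Ski (39.5), Siah2 (37.0), Dscr3 (36.6), Itgb3 (29.6), Ephb1 (23) and Cadps (22.4). Siah2 and Cadps reached these values with 468 and 245 nonredundant reads.

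The 10 lowest ratios of the upper tier belonged to genes outside the first 20. Zfp704 had 169 nonredundant and 231 redundant reads, or 1.37 copies, which sets it apart from Zfp958, with the same 169 nonredundant reads and 11.9 copies. Sorcs1 had 2.55 copies, Zfp64 2.92, Herc6 3.25, Zp3r 3.30, Pfkfb3 3.84, Dennd1b 4.03, Dtwd2 4.60, Rprd2 4.84 and Ttc28 5.13. Herc6 ranked at place 27 by nonredundant reads and 77 by redundant reads.

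**Figure D4:**
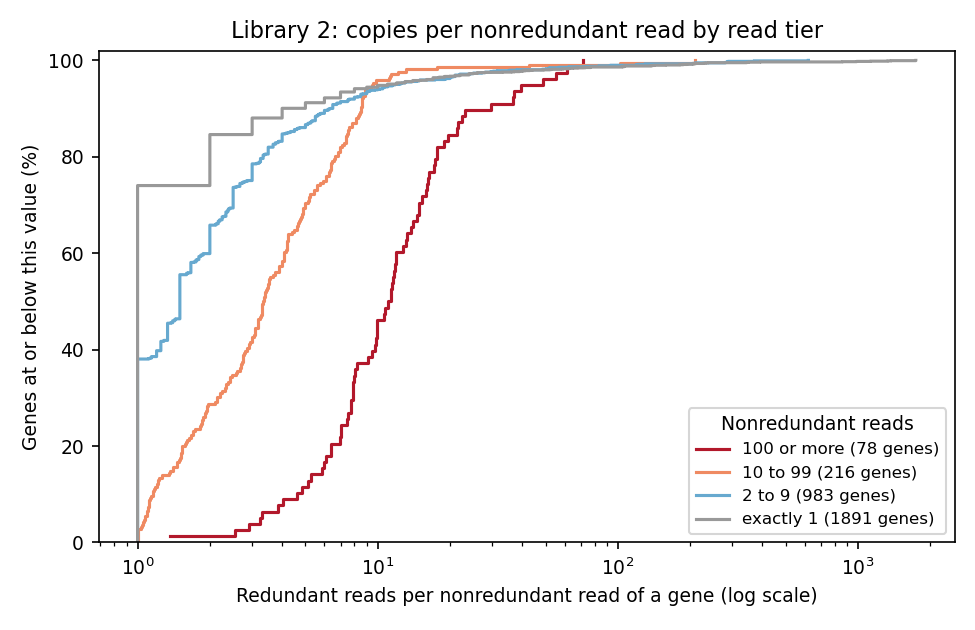
Lines give, for each tier of nonredundant reads in library 2, the percentage of genes (vertical) whose redundant reads per nonredundant read are at or below the value on the horizontal axis (log scale). The upper tier lies to the right with a median of 11.2, while 74.0% of single-read genes sit at 1; the lines of the 3 lower tiers have long right tails, to 1742 for single-read genes.

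A separate set of genes had few nonredundant but many redundant reads. In all, 50 genes with under 10 nonredundant reads had 100 or more redundant reads, and together they held 1.84% of redundant reads. Lrba, which encodes a vesicle traffic protein, had 6 nonredundant and 3732 redundant reads, which placed it at rank 30 by redundant reads. Rbms1 had 4 and 1150, Vmn2r76 2 and 571, and Itpr2, an intracellular calcium channel, 2 and 561.

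Single-read genes showed the same spread. Of the 1891, 386 had 2 to 9 redundant reads, 79 had 10 to 99 and 26 had 100 or more. Mef2c, a transcription factor of neurons and muscle, had 1742 redundant reads for its 1 nonredundant read. The mRNA cap methyltransferase gene Cmtr1 had 1373, the netrin receptor gene Unc5d 1328, Dpy19l4 1126 and Pik3c2g, a phosphoinositide kinase gene, 987. In the middle tier, the highest were Fras1 (13 and 2729), Dcc, another netrin receptor gene (11 and 1125), Dach1 (30 and 1279), Nebl (49 and 868) and Adarb2 (11 and 145).

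The set of 50 overlapped with library 1 in part. Of these genes, 34 were listed there (68%, 53.3 to 80.5), beside 54.9% of all library 2 genes, and 5 had 10 or more nonredundant reads there, among them the potassium channel gene Kcnt2 (3 reads in library 2 and 193 in library 1), Eif4g3 (3 and 112) and Exoc6b (1 and 105). Lrba had 4 reads in library 1, Mef2c 1, and Dpy19l4 and Vmn2r76 were absent. A ranking by redundant reads keeps 66 of the 78 upper-tier genes among its first 78.

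Some listed genes lie on chromosome Y. Library 2 listed 7 of them, with 10 nonredundant and 11 redundant reads in all: Ddx3y, Gm20736 and Kdm5d had 2 reads each, and Rbmy, Sly, Uty and Zfy2 had 1. None was in the upper or middle tier, and the labels do not say whether the cells carry a Y chromosome. Library 1 listed 3 Y-linked genes with 4 reads.

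Listed genes were long, and single-read genes less so. The median length on GRCm38.p6 was 113 kb in the upper tier (quartiles 58.3 and 289 kb), 130 kb in the middle tier (57.4 and 337) and 151 kb in the lower tier (66.5 and 324). It was 52.9 kb among single-read genes (27.4 and 113), beside 11.3 kb over 23052 reference genes that library 2 did not list. These unlisted genes include noncoding ones, while nearly all listed genes were protein coding. The quartiles of the upper, middle and lower tiers overlapped widely. All 78 upper-tier and 216 middle-tier genes were protein coding.

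The share of genes absent from library 1 also set the single-read genes apart. It was 23.1% in the upper, 32.4% (26.2 to 39.1) in the middle and 29.2% (26.4 to 32.2) in the lower tier, with intervals that overlap. Among single-read genes it was 55.8% (53.5 to 58.0), or 1055 of 1891. Single-read genes were shorter than those of the other tiers, and the part of length in their absence was not tested.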

How the data were processed

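Splinkerette PCR products of genomic DNA were sequenced on a HiSeq instrument per the labels' protocols, and CASAVA, BWA and the mm9 build come from the submitters' processing notes, with no version. The authors deposited 1 table of raw read counts per gene for each library of 2 pooled samples, with no normalization and at least 1 read per gene. For the assignment of reads to genes, filters and the collapsing of reads, the method is not given in the sources used here. Tiers used nonredundant reads with minima of 100, 10 and 2. Genes were matched by transcript, then symbol or synonym, to RefSeq genes of GRCm38.p6 (3167 of 3168 in library 2), whose lengths serve only to describe genes. Classes are 37 symbol patterns, matched in full, and a gene may be in several. Members and lists were chosen with earlier results of these data known. The rule for named genes took all with 100 or more reads, then up to 4 (10 to 99 reads) and 2 (2 to 9 reads) per class by reads, the 10 highest and lowest copies per nonredundant read in the upper tier and the 5 highest below it; others named with values were chosen after these were seen. Not every counted gene is reported by name. No test was run, since each library is 1 pooled value. Python 3.11.15, pandas 2.3.3 and SciPy 1.17.1 were used, and the scripts were tested on simulated data. Alternatives covered the read column, minima, gene sets and matching.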

Additional observations from a re-analysis of the deposited data

How the results depend on the processing

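The tier counts hardly changed with protein coding genes only, chromosomes 1 to 19 and X only, or overlapping genes with equal counts taken as 1. Tiers set by redundant reads gave 219 genes at 100 or more and 442 at 10 to 99, because every gene has at least as many redundant reads, and a minimum of 200 gave 48. Shared out by redundant reads, the upper, middle and lower tiers held 94.2%, 2.94% and 1.605%, and without Stx1a they held 73.05%, 15.4% and 7.22% of nonredundant reads. Genes with 100 or more reads absent from library 1 numbered 35 when 1 read there counted as absent and 66 when up to 9 did, 29 at a minimum of 50 and 4 at a minimum of 200. Copies per nonredundant read from summed counts were 33.15 in the upper and 6.61 in the lower tier. Numbered zinc finger genes made up 5.13% of genes at 100 or more reads and 1.175% at 2 or more, beside 1.58% of all listed genes. Another measure of length was not run, since the reference table used here gives 1 length per gene. No paired analysis was possible because each table pools its samples. For the same reason no sample could be left out.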

Other observations

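On some chromosomes the share of reads was far from the share of listed genes, and on chromosomes 4, 5 and 12 1 or 2 genes held most of the reads. Chromosome 5 held 7.13% of listed genes but 23.5% of nonredundant reads, and 8 of the 78 genes with 100 or more reads. Among them were both leading genes, Stx1a and Slc8b1, which together had 9485 of the 11456 reads of that chromosome. Chromosome 4 held 6.12% of genes and 10.2% of reads, with 2469 of its 4992 reads in Ski and 941 in Zyg11b. Chromosome 12 held 4.10% and 7.11%, with 2878 of its 3466 reads in Nrxn3. The X chromosome held 117 listed genes (3.69%) and 0.98% of reads.

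Genes of mixed or little-known function with middle-tier reads that no class caught were led by Wdr60 (97 nonredundant reads), Tmem135 (90), Hacd4 and Kpna6 (87 each), Dleu7 (80), C1qtnf7 and Oma1 (76 each). Brix1, a ribosome assembly factor, had 62 reads and Hus1, a subunit of a DNA damage checkpoint clamp, had 50. These genes were named after their values were seen.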
